A study of Mus musculus with 16 samples.

Results

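The genes described here are 44 of the 24341 gene symbols measured in sorted mouse muscle cells, and they encode parts of the machinery of cell division: mitotic kinases, the chromosomal passenger complex, the spindle checkpoint, kinetochore proteins, the anaphase-promoting complex (APC/C) with its substrates, condensin and chromosome proteins, and spindle and cytokinesis proteins. They were taken by symbol from a named list that was drawn up with earlier results of these data known, and all 44 symbols were found. In a dividing cell the kinetochore joins each chromosome to spindle microtubules, and the checkpoint holds the APC/C in check until every kinetochore is attached. The APC/C then marks securin and cyclin B for destruction, sister chromatids part, and the passenger complex and the central spindle complete division. Muscle stem cells of uninjured adult muscle are mostly out of the cell cycle, enter it after injury, and return to rest as the muscle is repaired.

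The study used RNA sequencing of total RNA from cells sorted from the muscles of C57BL/6 mice aged 2 to 3 months, of genotype p53 WT or p53KO. Cells carrying alpha-7 integrin and CD34 were kept by the sort, and those carrying Sca-1, CD31, CD45 or CD11b were removed. The 16 libraries formed 6 groups: p53KO_G2 and p53WT_G2 (2 libraries each), p53KO_3dai and p53WT_3dai (3 each), and p53KO and p53WT without a suffix (3 each). Source muscle was Tibialis Anterior for 3dai and hind limb for the other groups, so 3dai and muscle cannot be told apart. The suffixes are used as they stand, since no label defines them, and G2 is not read as a cell cycle phase. The labels also do not give what drives the p53 deletion, or whether replicates are separate animals, so p-values measure the spread between these libraries. Values are FPKM, fragment counts scaled by transcript length and by the library's total, so depth is unknown and levels can be set side by side between genes.

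Trp53, the gene encoding p53, was at 16.7 and 19.8 FPKM in p53KO_G2 against 70.97 and 59.9 in p53WT_G2, at 41.3, 45.7 and 34.9 in p53KO_3dai against 134, 135 and 161 in p53WT_3dai, and at 6.34, 12.2 and 7.17 in p53KO against 39.9, 53.9 and 48.1 in p53WT. It was lower in each KO group without overlap, and RNA of the gene was still counted there. The listed FPKM of a library summed to between 423303 and 616485, with 10240 to 11574 genes at 1 FPKM or more. In p53KO_3dai replicates 2 and 3, a single small RNA name, Mir6236, made up 9.81% and 10.1% of that total, against 0.277% to 2.36% elsewhere. The 10 muscle stem cell markers summed to 826 to 895 FPKM in 3dai, 1050 to 1370 in G2 and 2980 to 3670 without a suffix. Their defining marker Pax7 averaged 8.83 and 6.77 FPKM in p53KO_3dai and p53WT_3dai and 17.5 and 17.7 in p53KO_G2 and p53WT_G2, against 51.0 and 26.2 in p53KO and p53WT. Of the 10 markers, 8 averaged 1 FPKM or more in 3dai, and Calcr and Chrdl2 averaged 0.0466 to 0.300 FPKM there, against 46.9 to 208 with no suffix. The highest means with no suffix were those of Sdc4 (1266 in p53KO, 1397 in p53WT) and Myod1 (901 and 1105). Itga7 (alpha-7 integrin) ran the other way, at 208 and 196 FPKM in p53KO_3dai and p53WT_3dai against 85.7 and 90.1 in p53KO and p53WT. In p53KO_G2 and p53WT_G2 Itga7 averaged 239 and 273 FPKM. Cdh15 averaged 121 and 125 there, against 76.9 and 51.6 in p53KO and p53WT. Pecam1 and Ptprc, which define endothelial cells and leukocytes, were listed at 0 in all 6 3dai libraries. Ptprc was also at 0 in G2 and p53WT and averaged 0.00299 FPKM in p53KO, so its 0 does not set 3dai apart. Other markers of these cells were above 0 in 3dai. The leukocyte marker Cd68 averaged 4.83 and 1.81 FPKM in p53KO_3dai and p53WT_3dai, against 2.54 and 3.33 in p53KO and p53WT. The endothelial marker Cdh5 averaged 0.505 and 0.716, against 6.29 and 4.93.

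All 44 symbols passed the filter of at least 1 FPKM in 2 libraries, as did 12954 genes in all. Levels were compared as log2(FPKM + 1) with limma, with Benjamini-Hochberg adjustment over the 12954 genes, and a gene is called where its adjusted p is under 0.05. Every difference below is on that scale, which understates the change of low genes. Where all libraries of a group are listed at 0, no difference is given.

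Many promoters of mitotic genes are known to carry the cell cycle genes homology region (CHR), with letters TTTGAA, and CCAAT boxes. Promoter windows were taken from RefSeq (GRCm38.p6, the assembly also called mm10), from 250 bases before to 50 bases after a start, and both strands were searched, so TTCAAA and ATTGG count as well. A match of one motif can share its end letter with a match of the other. A promoter was found for 37 of the 44 genes, with 42 promoters in all, and Tpx2, Aurkb, Smc4, Foxm1, Spc24, Incenp and Cdca2 had none in the table. TTTGAA stood in 27 of the 42 promoters (64.3%), against 17.9% of the 32851 promoters of the table and 11.9% of those of the genes tested. By gene, 24 of the 37 had TTTGAA (64.9%), against 20.2% of all genes with a promoter in the table. CCAAT stood in 32 of 42 (76.2%), against 37.4% of all promoters. Both stood in 24 of 42 (57.1%), against 6.95%. The 8 genes with TTTGAA wholly within 50 bases upstream of a start in the table are printed first, as the 100 bases before that start, with the letters of each motif match in capitals. Birc5 and Pttg1, the genes with the largest and the smallest 3dai difference in p53WT, follow, and their windows hold neither motif.
Bub3 (chr7:131560270-131560369, plus strand): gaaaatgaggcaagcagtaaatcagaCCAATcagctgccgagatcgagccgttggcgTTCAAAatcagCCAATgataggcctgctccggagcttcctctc
Cdc20 (chr4:118437344-118437443, minus strand): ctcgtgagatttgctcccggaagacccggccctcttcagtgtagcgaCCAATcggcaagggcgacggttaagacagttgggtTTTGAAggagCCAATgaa
Ube2c (chr2:164769829-164769928, plus strand): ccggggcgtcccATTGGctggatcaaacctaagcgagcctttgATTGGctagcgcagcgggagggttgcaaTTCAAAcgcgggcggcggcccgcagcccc
Espl1 (chr15:102296193-102296292, plus strand): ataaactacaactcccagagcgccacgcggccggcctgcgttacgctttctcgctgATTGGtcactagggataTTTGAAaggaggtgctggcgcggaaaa
Cdca5 (chr19:6084997-6085096, plus strand): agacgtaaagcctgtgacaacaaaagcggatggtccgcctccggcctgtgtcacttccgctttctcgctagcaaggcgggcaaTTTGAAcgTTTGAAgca
Ncapg (chr5:45669825-45669924, plus strand): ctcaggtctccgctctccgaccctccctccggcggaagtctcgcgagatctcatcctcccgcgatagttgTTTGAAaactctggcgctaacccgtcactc
Top2a (chr11:99024190-99024289, minus strand): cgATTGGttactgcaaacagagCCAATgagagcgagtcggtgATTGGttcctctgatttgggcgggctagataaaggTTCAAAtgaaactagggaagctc
Prc1 (chr7:80294376-80294475, plus strand): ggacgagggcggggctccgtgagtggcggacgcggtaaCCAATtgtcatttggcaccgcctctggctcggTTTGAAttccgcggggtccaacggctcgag
Birc5 (chr11:117849137-117849236, plus strand): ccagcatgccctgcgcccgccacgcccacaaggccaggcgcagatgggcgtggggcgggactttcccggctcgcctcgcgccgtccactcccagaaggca
Pttg1 (chr11:43425982-43426081, minus strand): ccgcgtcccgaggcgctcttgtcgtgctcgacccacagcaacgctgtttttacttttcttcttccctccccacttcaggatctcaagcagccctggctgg
Sequences are in the direction of transcription. The Prc1 stretch lies before the second of its annotated starts. Several starts of the table lie inside the annotated gene. All 100 bases printed for Pttg1 are within its gene, chr11:43420244-43427463 on the minus strand, as are the last 39 of Espl1, 34 of Ncapg and 31 of Prc1, which hold the TTTGAA matches of these 3 genes. For Top2a and Bub3 the last 10 and 3 bases are within the gene, and their matches lie before it. A match of letters is not a bound site, and its absence from a window says nothing about a factor.

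**Figure D1:**
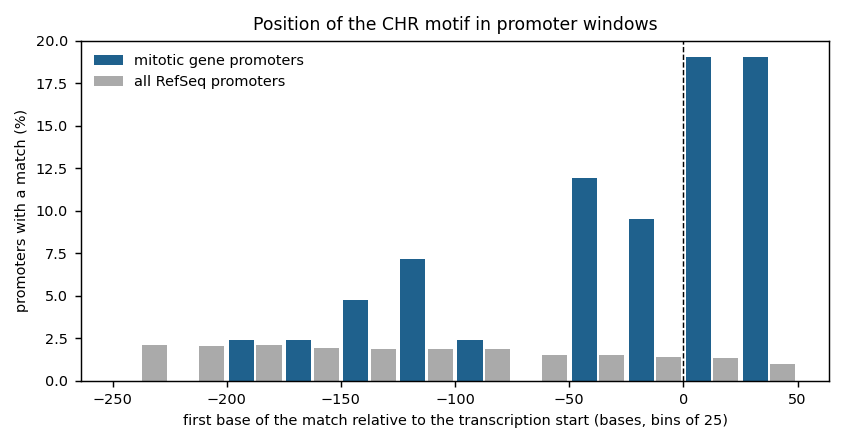
Share of promoters (%) with a TTTGAA match, either strand, against the position of the match's first base relative to the transcription start, in bins of 25 bases. Blue bars are the 42 promoters of the mitotic genes and grey bars the 32851 promoters of the table. Of the 34 matches in the mitotic genes, 9 lay wholly within 50 bases upstream, and 17 reached or followed the start. Matches are counted per promoter window, so the same bases in overlapping windows of Bub3, Prc1 and Ect2 count more than once.

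In cells with the 3dai suffix, 43 of the 44 mitotic genes were called higher and none lower than in cells with no suffix, in both genotypes. Over all genes tested, 30.4% were called higher and 22.7% lower in p53KO_3dai against p53KO, and 31.8% and 20.9% in p53WT_3dai against p53WT. The exception was Pttg1, which encodes securin, the inhibitor of separase. The median difference of the 44 genes was 4.91 in p53KO and 4.64 in p53WT, against 0.14 and 0.23 over all genes. Scaling by median-of-ratios factors moved the medians over all genes to -0.09 and -0.06 and left those of the 44 genes at 4.71 and 4.39. For 43 genes the 3dai group lay wholly above its control group in each genotype (33.8% of all genes in p53KO and 35.6% in p53WT). In bulk cells a larger share of dividing cells and more RNA per cell cannot be told apart.

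Levels without a suffix were low. Of the 44 genes, 24 had a mean under 1 FPKM over the 6 libraries, 27 were listed at 0 in at least 1 of them, and Cenpm was listed at 0 in all. In p53WT, 5 genes were listed at 0 in all 3 libraries (Plk1, Nek2, Cdca8, Bub1 and Cenpm), and in p53KO 1 was (Cenpm). Bub3, Smc4 and Pttg1 were at 10 FPKM or more in every one of these libraries. None of the 44 genes was listed at 0 in a 3dai or G2 library. The FPKM of the 44 genes summed to 2637, 3167 and 3129 in p53KO_3dai against 100.3, 87.6 and 127 in p53KO, and to 2673, 2635 and 2624 in p53WT_3dai against 95.5, 156 and 91.1 in p53WT.

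**Figure D2:**
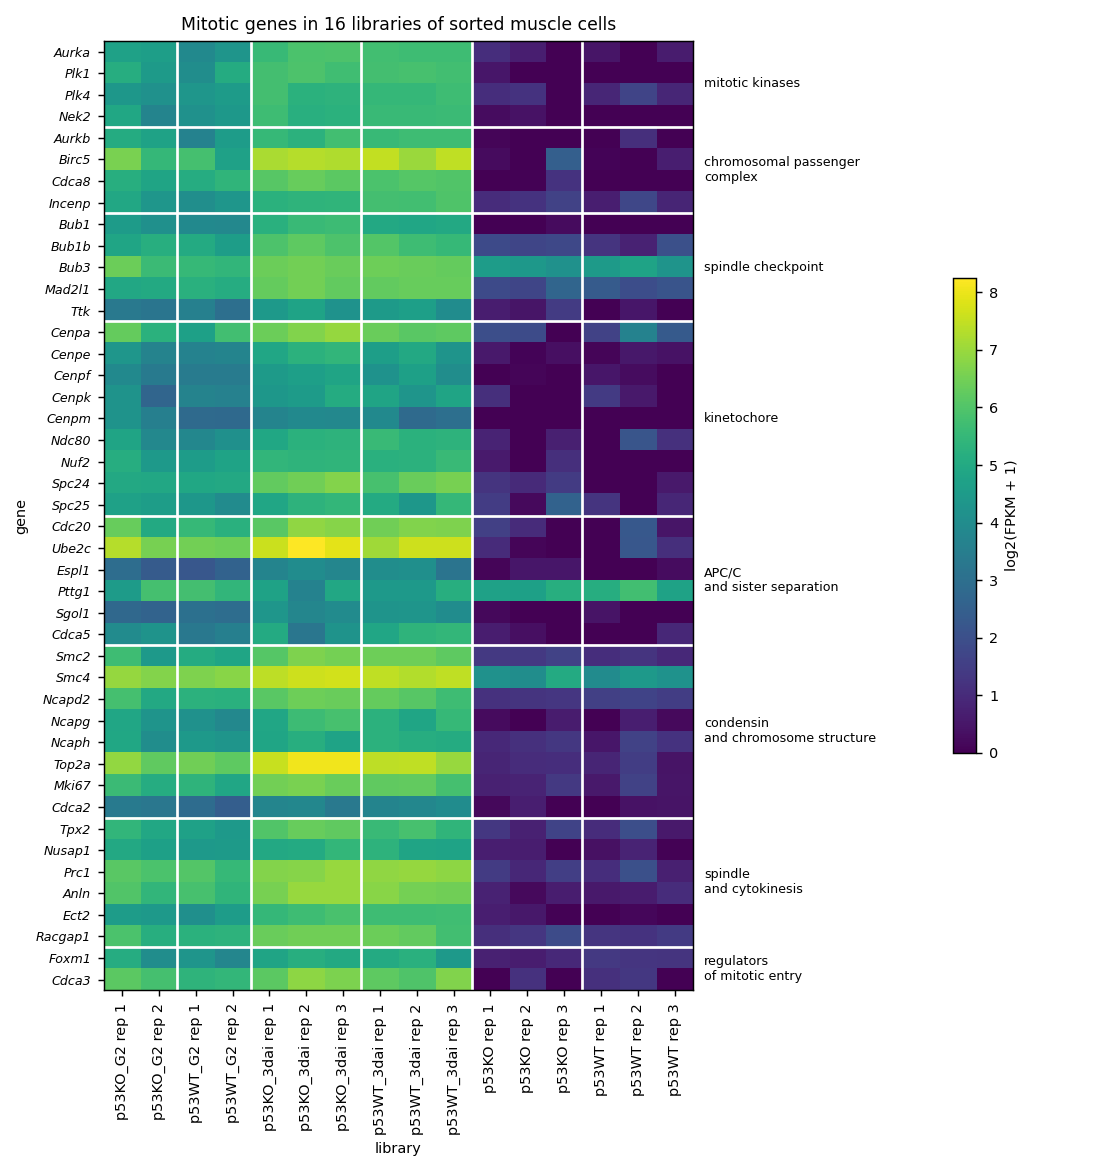
Heat map of log2(FPKM + 1) for the 44 genes (rows, grouped by role) in the 16 libraries (columns, grouped by condition). The 6 libraries on the right, with no suffix, are dark except for Bub3, Smc4 and Pttg1, and the 3dai libraries in the middle are the brightest for nearly all rows.

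All 4 mitotic kinases were called higher in 3dai. Plk1 encodes polo-like kinase 1, which acts in mitotic entry and spindle assembly. Its levels were 54.1, 60.3 and 51.7 FPKM in p53KO_3dai and 54.01, 56.6 and 52.5 in p53WT_3dai, against 0.409, 0 and 0 in p53KO and 0, 0 and 0 in p53WT. A value above 0 was thus listed in 1 of 6 libraries with no suffix, while the 3dai libraries lay close together, and the p53KO difference was 5.65 (SE 0.27, adjusted p = 7.33e-10). Plk4, the kinase that starts centriole duplication, had 54.3, 37.1 and 38.9 FPKM in p53KO_3dai and 43.6, 44.2 and 50.3 in p53WT_3dai, against 1.09, 1.29 and 0 in p53KO and 0.839, 2.26 and 0.852 in p53WT. Its difference was the smallest of the 4 kinases in p53WT, at 4.40 (SE 0.32, adjusted p = 3.21e-08), and the value of p53KO_3dai replicate 1 carries the quantification status FAIL. Aurka, a spindle pole kinase, averaged 55.2 ± 8.33 and 50.9 ± 1.12 FPKM in p53KO_3dai and p53WT_3dai, and Nek2, a centrosome kinase, 40.9 ± 8.14 and 47.5 ± 0.859 (SD, n = 3 each, as for every ± below).

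The chromosomal passenger complex, which corrects wrong attachments and later acts at the midzone, rose as a whole, with 4 of 4 genes called higher in each genotype. Birc5, or survivin, which brings the complex to centromeres, showed the largest difference of all 44 genes in p53WT. Its values were 147, 160.3 and 152 FPKM in p53KO_3dai and 178, 128 and 174 in p53WT_3dai, against 0.194, 0 and 4.65 in p53KO and 0.0536, 0 and 0.612 in p53WT. The groups were far apart, although p53KO replicate 3 stood above its group, and the differences were 6.35 (SE 0.51, adjusted p = 9.09e-08) and 7.06 (SE 0.51, adjusted p = 3.24e-08). Incenp, the scaffold of the complex, had 37.7, 40.3 and 40.7 FPKM in p53KO_3dai and 53.6, 52.2 and 62.2 in p53WT_3dai, against 1.06, 1.30 and 2.11 in p53KO and 0.629, 2.34 and 0.824 in p53WT. It moved least of the 4, by 4.05 in p53KO and 4.72 in p53WT. Aurkb, the kinase of the complex, averaged 45.3 ± 7.42 and 49.01 ± 2.52 FPKM, and Cdca8, or borealin, 72.6 ± 6.19 and 62.7 ± 3.57, in p53KO_3dai and p53WT_3dai.

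All 5 spindle checkpoint genes were called higher, from very different starting levels. Bub3, a WD40 protein that carries the Bub kinases to kinetochores, had 83.9, 88.1 and 81.2 FPKM in p53KO_3dai and 85.1, 81.4 and 77.9 in p53WT_3dai, against 22.6, 20.2 and 16.9 in p53KO and 21.5, 26.7 and 18.2 in p53WT. It was abundant already with no suffix, the groups did not overlap, and its difference was the smallest of the 43 that were called, at 2.04 (SE 0.20, adjusted p = 8.09e-07) in p53KO and 1.85 (SE 0.20, adjusted p = 2.19e-06) in p53WT. Its partner Bub1, a checkpoint kinase, had 36.6, 46.6 and 49.7 FPKM in p53KO_3dai and 30.7, 28.4 and 30.7 in p53WT_3dai, against 0, 0.00823 and 0.184 in p53KO and 0, 0 and 0 in p53WT. Thus Bub1 was at or near 0 in every library with no suffix, where Bub3 was at 16.9 to 26.7 FPKM. Mad2l1, the inhibitor of Cdc20, averaged 80.8 ± 6.97 and 78.8 ± 1.94 FPKM in p53KO_3dai and p53WT_3dai, Bub1b (BubR1) 64.2 ± 6.53 and 53.2 ± 10.4, and Ttk, the Mps1 kinase that starts checkpoint signalling, 21.5 ± 4.45 and 20.2 ± 4.56.

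Kinetochore genes were called higher in 9 of 9 cases in each genotype. Spc24, a subunit of the microtubule-binding Ndc80 complex, had 76.2, 86.2 and 104 FPKM in p53KO_3dai and 56.5, 81.04 and 92.99 in p53WT_3dai, against 1.34, 0.978 and 1.68 in p53KO and 0, 0 and 0.462 in p53WT. It showed the largest difference of the 9 in p53WT, 6.07 (SE 0.24, adjusted p = 1.19e-10), and 5.26 in p53KO. Cenpm, a subunit of the inner kinetochore, had 12.3, 14.1 and 13.3 FPKM in p53KO_3dai and 14.2, 6.19 and 7.05 in p53WT_3dai, against 0 in each of the 6 libraries with no suffix. It was called in both genotypes (adjusted p = 8.14e-08 in p53KO and 4.35e-07 in p53WT) but stayed the lowest of the 9 in 3dai. The other Ndc80 complex subunits were at lower levels, with Ndc80 at 35.5 ± 5.54 and 41.1 ± 5.57 FPKM, Nuf2 at 41.4 ± 1.01 and 40.9 ± 5.67, and Spc25 at 36.8 ± 7.57 and 32.00 ± 12.2, in p53KO_3dai and p53WT_3dai. Cenpa, the centromeric histone H3 variant, averaged 102 ± 19.3 and 74.2 ± 5.54 FPKM, and Cenpe, a motor of the kinetochore, 36.3 ± 7.15 and 24.1 ± 6.10. Cenpf averaged 24.3 ± 2.65 and 19.2 ± 4.77 FPKM and Cenpk, an inner kinetochore subunit, 24.7 ± 7.18 and 24.5 ± 4.88.

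Among genes of the APC/C and of sister separation, 5 of 6 were called higher. Ube2c, the E2 enzyme that serves the APC/C, had 192, 302 and 241 FPKM in p53KO_3dai and 134, 193 and 196 in p53WT_3dai, against 1.03, 0.0933 and 0 in p53KO and 0, 3.73 and 1.14 in p53WT. By mean it was the most abundant of the 44 genes in 3dai in both genotypes, with differences of 7.53 (SE 0.43, adjusted p = 3.51e-09) and 6.32 (SE 0.43, adjusted p = 1.96e-08). Securin is the protein that the APC/C destroys to free separase. Its gene Pttg1 had 25.7, 11.6 and 29.6 FPKM in p53KO_3dai and 20.6, 20.7 and 34.9 in p53WT_3dai, against 25.3, 24.9 and 34.8 in p53KO and 33.99, 53.05 and 26.02 in p53WT. The groups overlapped and no call was made, with differences of -0.41 (SE 0.38, adjusted p = 0.381) and -0.53 (SE 0.38, adjusted p = 0.257). Espl1, which encodes separase, had 12.1, 15.00 and 12.9 FPKM in p53KO_3dai and 15.5, 16.03 and 8.05 in p53WT_3dai, against 0.0815, 0.418 and 0.410 in p53KO and 0, 0 and 0.216 in p53WT. Thus the separase gene was called higher where the gene of its inhibitor was not. Cdc20, the activator of the APC/C, averaged 97.7 ± 24.7 and 96.4 ± 8.13 FPKM in p53KO_3dai and p53WT_3dai, Cdca5 (sororin, a protector of cohesion) 19.4 ± 11.98 and 37.04 ± 7.53, and Sgol1 (shugoshin, a guard of centromeric cohesion) 15.5 ± 3.14 and 17.4 ± 1.86.

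**Figure D3:**
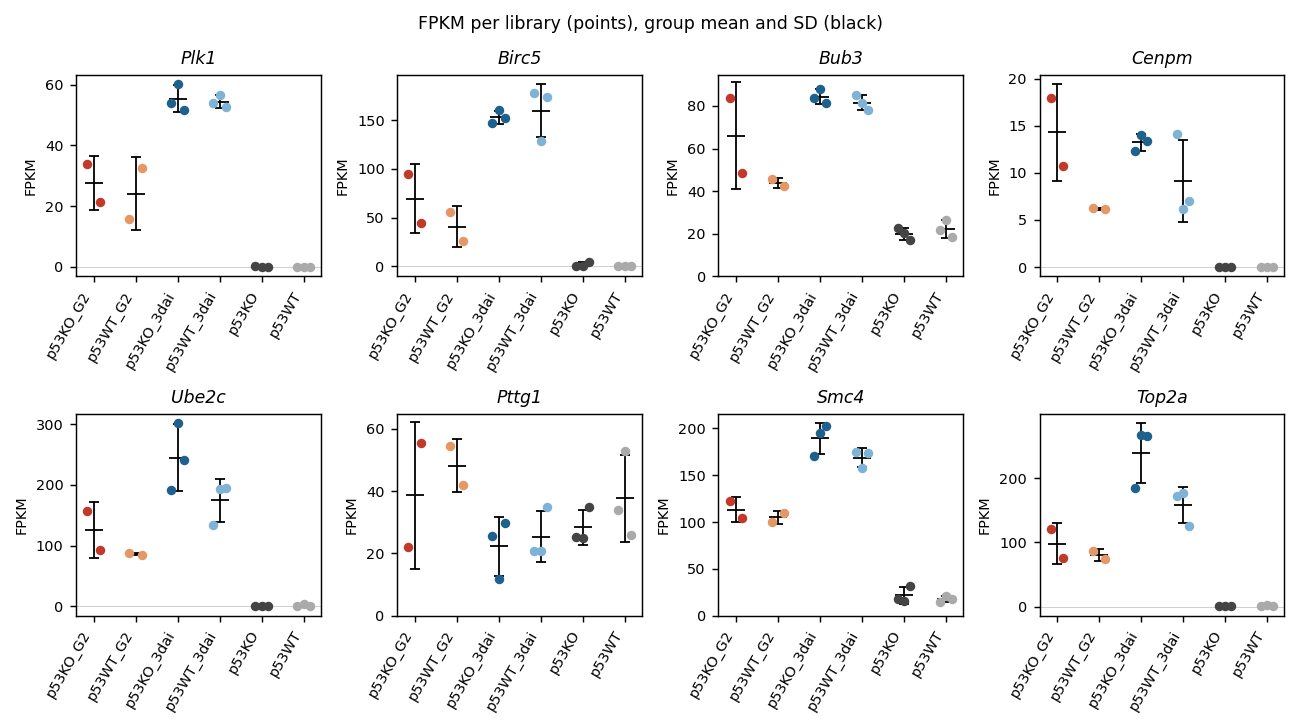
FPKM of 8 genes in each library (points), with group means and SD in black, from G2 on the left through 3dai to no suffix on the right, KO before WT. In 7 panels the 3dai and G2 points lie above those with no suffix. The Pttg1 panel spans 11.6 to 55.4 FPKM, and its 3dai and G2 groups overlap those with no suffix of the same genotype. Its p53WT_G2 points lie above its p53WT_3dai points. The G2 groups have 2 points each.

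Of 8 condensin and chromosome genes, 8 were called higher in each genotype. Top2a, topoisomerase II alpha, which untangles sister DNA, had 185, 267 and 265 FPKM in p53KO_3dai and 172, 176 and 125 in p53WT_3dai, against 0.803, 1.08 and 1.11 in p53KO and 0.822, 1.83 and 0.357 in p53WT. The differences were 6.89 (SE 0.27, adjusted p = 1.09e-10) and 6.36 (SE 0.27, adjusted p = 2.61e-10), the largest of the 8. Smc4, an ATPase core subunit of condensin, had 171, 195 and 203 FPKM in p53KO_3dai and 175, 157 and 174 in p53WT_3dai, against 17.2, 15.4 and 31.9 in p53KO and 14.8, 20.4 and 17.5 in p53WT. Like Bub3 it was present in every library with no suffix, and its differences of 3.15 and 3.20 were the smallest of the 8. Its ATPase partner Smc2 averaged 85.9 ± 17.2 FPKM in p53KO_3dai and 80.6 ± 6.30 in p53WT_3dai, against 1.74 ± 0.299 in p53KO and 1.14 ± 0.226 in p53WT. The condensin I subunits Ncapd2, Ncapg and Ncaph averaged 29.8 to 78.5 FPKM in the 3dai groups, against 0.243 to 1.98 with no suffix. Mki67, which encodes the proliferation marker Ki-67, averaged 88.7 ± 6.46 and 68.2 ± 11.2 FPKM in p53KO_3dai and p53WT_3dai, and Cdca2 11.6 ± 2.12 and 13.5 ± 1.35.

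Spindle and cytokinesis genes were called higher in 6 of 6 cases. Prc1, which bundles midzone microtubules, had 105, 105 and 125 FPKM in p53KO_3dai and 117, 123 and 113 in p53WT_3dai, against 1.68, 0.879 and 1.89 in p53KO and 1.13, 3.02 and 0.663 in p53WT. Anln, or anillin, a scaffold of the contractile ring, had 92.99, 124 and 125 FPKM in p53KO_3dai and 109, 90.4 and 86.6 in p53WT_3dai, against 0.715, 0.150 and 0.591 in p53KO and 0.466, 0.537 and 1.05 in p53WT. Tpx2, an activator of Aurora A, had 63.3, 78.9 and 73.8 FPKM in p53KO_3dai and 47.01, 56.4 and 41.2 in p53WT_3dai, against 1.51, 0.696 and 2.17 in p53KO and 1.08, 2.99 and 0.477 in p53WT. None of these groups overlapped, and the p53WT differences were 5.61 (SE 0.28, adjusted p = 1.11e-09) for Prc1, 5.85 (SE 0.24, adjusted p = 2.15e-10) for Anln and 4.40 (SE 0.33, adjusted p = 4.24e-08) for Tpx2. Racgap1 and Ect2, which direct the small GTPase RhoA at the cleavage furrow, averaged 84.99 ± 2.64 and 50.97 ± 7.03 FPKM in p53KO_3dai, and 70.7 ± 16.2 and 50.4 ± 0.618 in p53WT_3dai. Nusap1, a microtubule-associated protein, averaged 35.1 ± 7.16 and 30.8 ± 7.00.

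Both regulators of mitotic entry were called higher. Foxm1, a transcription factor of late cell cycle genes, had 26.9, 34.7 and 31.2 FPKM in p53KO_3dai and 32.1, 37.02 and 20.8 in p53WT_3dai, against 0.700, 0.580 and 0.923 in p53KO and 1.56, 1.42 and 1.35 in p53WT. Cdca3 had 70.6, 115 and 97.2 FPKM in p53KO_3dai and 72.2, 61.4 and 101 in p53WT_3dai, against 0, 1.27 and 0 in p53KO and 1.22, 1.53 and 0 in p53WT. Neither gene's groups overlapped, and the differences were 4.20 and 3.63 for Foxm1 and 6.15 and 5.45 for Cdca3, in p53KO and p53WT.

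Other genes of the same pathway were less uniform. Their counts are to be read against the 30.4% (p53KO) and 31.8% (p53WT) of all genes called higher and the 22.7% and 20.9% called lower. Of 29 further kinetochore genes, 26 were called higher in each genotype, with a median of 2.98 in p53KO and 3.15 in p53WT. Ska2, a subunit of a microtubule coupler, differed by 4.43 in p53KO and was listed at 0 in all 3 p53WT libraries, whereas Cenpb, which binds centromeric DNA, was not called in p53WT (0.30). Of 17 APC/C subunits and activators, 11 were called higher in p53KO and 13 in p53WT, with medians of 0.92 and 0.89. The inhibitor Fbxo5 (Emi1) led them with 4.14 in p53WT, and the subunit Anapc10 was not called at 0.19. Of 11 cohesin genes tested, 5 were called higher and 1 lower in each genotype, and no list had a lower share called higher. In p53WT the acetyltransferase Esco2 differed by 4.21 and the cohesin loader Nipbl by -0.80 (adjusted p = 0.00392). Of 27 centrosome and spindle genes, 25 were called higher and 1 lower in each genotype, led in p53WT by Hmmr at 5.10, with Mapre1, which encodes the plus-end protein EB1, at -0.57 (adjusted p = 0.00475). Condensin II genes were called higher in 3 of 3 cases in p53KO and 2 of 3 in p53WT. Of 10 genes of the MuvB and DREAM complexes, which act on cell cycle promoters, 7 were called higher and 1 lower in each genotype. Mybl2, an activator, differed by 4.30 in p53WT, and Rbl2, the repressor p130, by -0.68 (adjusted p = 0.0477). All 18 DNA replication genes were called higher, with medians of 3.57 in p53KO and 3.69 in p53WT.

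In libraries with the G2 suffix, 43 of the 44 genes were again called higher than with no suffix in both genotypes, against 22.5% of all genes in p53KO_G2 minus p53KO and 22.1% in p53WT_G2 minus p53WT. Groups lay apart with G2 higher for the same number of genes, 43 (37.4% of all genes in p53KO and 41% in p53WT). These comparisons share their control libraries with those of 3dai. The median difference of the 44 genes was 3.91 in p53KO and 3.58 in p53WT, against 0.31 and 0.33 over all genes, or -0.03 and 0.00 after median-of-ratios scaling. Anln had 63.1 and 42.3 FPKM in p53KO_G2 and 57.03 and 41.5 in p53WT_G2, and differed by 5.17 (SE 0.27, adjusted p = 2.1e-08) and 4.90 (SE 0.27, adjusted p = 1.74e-08). Top2a had 120.3 and 74.9 FPKM in p53KO_G2 and 87.04 and 73.3 in p53WT_G2, with differences of 5.59 and 5.40. Spc24 had 30.6 and 29.9 FPKM in p53KO_G2 and 29.2 and 30.4 in p53WT_G2, and differed by 4.76 in p53WT. The 4 G2 values of Spc24 lay close together. Bub1 had 21.8 and 16.6 FPKM in p53KO_G2 and 13.9 and 13.5 in p53WT_G2, and differed by 4.24 in p53KO. For all 4 genes each G2 library exceeded each library with no suffix. Pttg1 had 21.9 and 55.4 FPKM in p53KO_G2 and 54.4 and 42.1 in p53WT_G2 and was not called, at 0.31 (SE 0.43, adjusted p = 0.628) and 0.40 (SE 0.43, adjusted p = 0.533). Its lowest G2 value lay below all 6 libraries with no suffix and its highest above them all.

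Set against 3dai, the G2 libraries held lower levels of most of these genes. None was called higher (16.1% of all genes were in p53KO and 13.9% in p53WT). Of the 44, 22 were called lower in p53KO_G2 against p53KO_3dai, where 7.1% of all genes were, and 29 in p53WT_G2 against p53WT_3dai, where 6.7% were. The groups did not overlap, with G2 lower, for 34 genes in p53KO (20.2% of all genes) and 42 in p53WT (23.5%). The median difference was -0.99 in p53KO and -1.03 in p53WT, against 0.12 and 0.09 over all genes. By mean FPKM the median gene stood in G2 at 51.0% of its 3dai level in p53KO and 47.3% in p53WT, and with no suffix at 1.35% and 1.19%. Means ran in the order 3dai, G2, no suffix for 42 genes in p53KO and 43 in p53WT. No share over all genes was taken for this order. Pttg1 did not follow that order in either genotype, nor Cenpm in p53KO. Summed over the 44 genes, FPKM came to 1879 and 1287 for p53KO_G2 and 1298 and 1246 for p53WT_G2, below every 3dai library.

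All 4 kinases were called lower in both genotypes. Spc24 differed most in p53KO, by -1.51 (SE 0.27, adjusted p = 0.001), and Birc5 most in p53WT, by -2.04 (SE 0.57, adjusted p = 0.0192). Birc5 had 94.6 and 44.3 FPKM in p53KO_G2 and 55.3 and 25.5 in p53WT_G2, and was not called in p53KO (-1.23, adjusted p = 0.135). In p53WT 3 of 4 passenger complex genes were called lower, against 1 of 4 in p53KO, and the difference between the genotypes here was not tested. Securin ran the other way, without a call. Pttg1 averaged 173% of its 3dai mean in p53KO_G2 (0.72, SE 0.43, adjusted p = 0.241 by limma). In p53WT_G2 it averaged 190% (0.93, SE 0.43, adjusted p = 0.138 by limma). Both p53WT_G2 values of Pttg1, 54.4 and 42.1 FPKM, lay above every p53WT_3dai value, the highest being 34.9. In p53KO its G2 and 3dai groups overlapped. DNA replication genes were called lower in 11 of 18 cases in p53KO and 18 of 18 in p53WT. The counts changed with single libraries left out. In p53WT, where 29 genes were called, the count was 8 without p53WT_G2 replicate 2 and 12 without its replicate 1, and 16, 18 and 25 without p53WT_3dai replicates 1, 2 and 3. In p53KO, where 22 were called, it was 4 without p53KO_G2 replicate 2 and 19 without its replicate 1, and 21, 12 and 10 without p53KO_3dai replicates 1, 2 and 3. Adding 0.1 in place of 1 before the log gave 4 calls in each genotype, with medians over the 44 genes of -1.01 in p53KO and -1.06 in p53WT. Shares of all genes called in these alternative fits are not given here. The counts given here thus do not show whether calls fell over the whole fit or among these genes in particular.

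**Figure D4:**
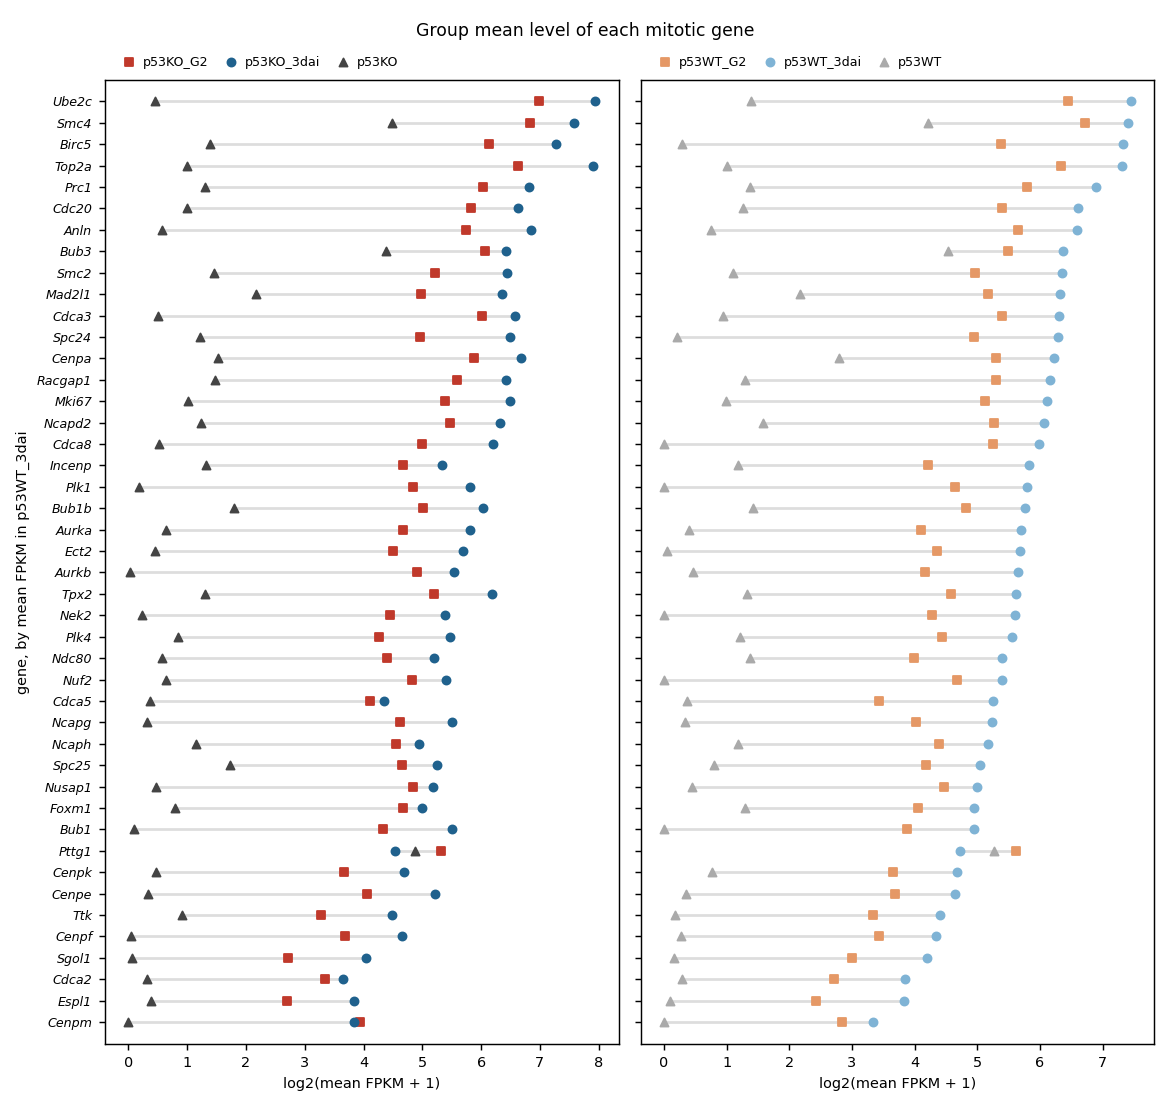
Mean level of each gene as log2(mean FPKM + 1) in G2 (squares), 3dai (circles) and no suffix (triangles), p53KO groups on the left and p53WT groups on the right, ordered by the p53WT_3dai mean. Squares lie left of circles and far right of triangles for nearly every gene; Pttg1 is the exception in both panels, and Cenpm in the left one.

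Markers of other cells moved between these states, and their part in the levels was not tested. Muscle fibre genes (6 listed) summed to 233 to 898 FPKM in G2, against 20.8 to 55.5 in 3dai and 17.3 to 63.5 with no suffix. Acta1 led the G2 sums, averaging 280 and 475 FPKM in p53KO_G2 and p53WT_G2. Myh2, under 1 FPKM in every library, averaged 0.412 and 0.0136 there, against 0.313 and 0.300 in p53KO and p53WT. Markers of fibro-adipogenic progenitors (5 genes) summed to 186 to 284 FPKM in G2, 24.3 to 54.2 in 3dai and 663 to 927 with no suffix. Low in all groups, Ly6a averaged 2.40 and 3.65 FPKM in p53KO_3dai and p53WT_3dai against 0.180 and 0.930 in p53KO and p53WT. Pdgfra, also low, averaged 1.53 and 1.32 FPKM in p53KO_G2 and p53WT_G2 against 0.534 and 0.785 in p53KO and p53WT. Schwann cell markers (6 genes) summed to 123 to 138 FPKM in G2, 5.85 to 66.0 in 3dai and 334 to 443 with no suffix. Against that sum, Ngfr averaged 13.1 and 37.1 FPKM in p53KO_3dai and p53WT_3dai and 4.56 and 3.05 in p53KO and p53WT. Pericyte and smooth muscle markers (6 genes) summed to 316 to 678 FPKM in G2, 14.1 to 45.4 in 3dai and 266 to 881 with no suffix. Tenocyte markers (6 genes) summed to 230 to 542 FPKM in G2, 36.0 to 85.8 in 3dai and 219 to 438 with no suffix. Of these, Scx ran the other way, averaging 36.3 and 44.8 FPKM in p53KO_3dai and p53WT_3dai against 3.75 and 5.21 in p53KO and p53WT. The sums of endothelial markers (6 genes) were 5.63 to 13.7 FPKM in G2, 0.281 to 2.72 in 3dai and 16.8 to 27.1 with no suffix. Tek led the sums with no suffix, averaging 16.5 and 14.6 FPKM in p53KO and p53WT. Cldn5 ran the other way, averaging 5.59 and 0.421 FPKM in p53KO_G2 and p53WT_G2 against 0.225 and 0 in p53KO and p53WT. Leukocyte markers (9 of 10 listed) came to 5.79 to 22.3 FPKM in G2, 2.02 to 10.4 in 3dai and 4.74 to 27.4 with no suffix.

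Between genotypes no member of the 44 was called in any state. In G2, 0 were called (limma, either direction), where 0.0695% of all genes were, and 2 had an unadjusted p under 0.05 (4.87% of all genes). In 3dai, 0 were called, where 0.0849% were, and 3 had an unadjusted p under 0.05 (8.89%). With no suffix, 0 were called, where 0.00772% were, and 3 had an unadjusted p under 0.05 (3.95%). Cenpm, listed at 0 in every library with no suffix, could not be called there. These 3 comparisons share no libraries.

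In G2, 37 of the 44 genotype differences were positive, none past the limit, with a median of 0.25 against -0.01 over all genes. Both p53KO_G2 libraries lay above both p53WT_G2 libraries for 13 genes (29.5%, against 15% of all genes) and below them for 2, Mad2l1 and Sgol1 (4.55%, against 16.1%). The 13 were Aurka, Aurkb, Bub1, Bub3, Cdca2, Cdca3, Cdca5, Cenpm, Ncapg, Nusap1, Spc25, Tpx2 and Ube2c. Cenpm had 17.96 and 10.7 FPKM in p53KO_G2 against 6.23 and 6.12 in p53WT_G2, a difference of 1.05 (SE 0.37, unadjusted p = 0.0124, adjusted p = 0.795 by limma). Bub3 had 83.7 and 48.3 FPKM in p53KO_G2 against 45.5 and 42.2 in p53WT_G2 (0.53, unadjusted p = 0.0498, limma). Aurkb had 32.4 and 25.9 FPKM in p53KO_G2 against 11.6 and 22.5 in p53WT_G2 (0.80, unadjusted p = 0.0526, limma). For Bub3 1 library, p53KO_G2 replicate 1, stood apart from the other 3. That library was the highest of the 4 for 35 of the 44 genes, and replicate 2 lay at or below the higher p53WT_G2 value for 29. The median difference was 0.00 without replicate 1 and 0.57 without replicate 2. Tenocyte markers (6 genes) summed to 230 to 234 FPKM in p53KO_G2 against 462 to 542 in p53WT_G2, and pericyte markers to 316 to 545 against 574 to 678. Those of fibro-adipogenic progenitors summed to 186 to 233 against 264 to 284. In that last list Dcn averaged 99.2 against 177 FPKM, whereas Dpt averaged 104 against 87.2 and Pdgfra 1.53 against 1.32. The part of these markers was not tested.

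In 3dai the median genotype difference was 0.08, against -0.02 over all genes, and 30 of 44 were positive. The groups did not overlap for 6 genes with p53KO_3dai higher (Bub1, Cdca8, Cenpa, Mki67, Top2a and Tpx2, 13.6% against 5.07% of all genes) and for 1 with it lower, Incenp (2.27% against 6.91%). Bub1 had 36.6, 46.6 and 49.7 FPKM in p53KO_3dai against 30.7, 28.4 and 30.7 in p53WT_3dai (0.54, unadjusted p = 0.0285, adjusted p = 0.456 by limma). Top2a, whose values stand above, differed by 0.59 (unadjusted p = 0.0434, adjusted p = 0.535 by limma). Cdca5, the sororin gene, ran the other way with 32.2, 8.46 and 17.6 FPKM in p53KO_3dai against 28.5, 40.1 and 42.5 in p53WT_3dai (-1.06, unadjusted p = 0.0183, adjusted p = 0.405 by limma). Its groups overlapped because p53KO_3dai replicate 1 lay within the p53WT_3dai range. Without that library Cdca5 was called (-1.50, adjusted p = 0.04 by limma), and the median over the 44 genes was 0.22. Without p53KO_3dai replicates 2 and 3, the pair rich in Mir6236, Cdca5 differed by -0.17 and the median was 0.01.

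With no suffix the median genotype difference was 0.03, against 0.01 over all genes, and 24 of the 44 genes had means under 1 FPKM. The groups did not overlap for Spc24 and Smc2 with p53KO higher (4.55%, against 3.99% of all genes) and for Foxm1 and Ncapd2 with it lower (4.55%, against 2.74%). Spc24 had 1.34, 0.978 and 1.68 FPKM in p53KO against 0, 0 and 0.462 in p53WT, with the smallest p of the 44 genes (1.03, unadjusted p = 0.000603, adjusted p = 0.71 by limma). Cenpa had 2.93, 2.69 and 0 FPKM in p53KO against 2.06, 11.6 and 4.10 in p53WT (-1.25, unadjusted p = 0.0322, limma), and its groups overlapped. Ttk had 0.574, 0.376 and 1.68 FPKM in p53KO against 0, 0.402 and 0 in p53WT (0.68, unadjusted p = 0.0459, limma), and its groups overlapped too. In p53WT 1 library led: replicate 2 was the highest of its group for 23 genes, Cenpa among them.

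**Figure D5:**
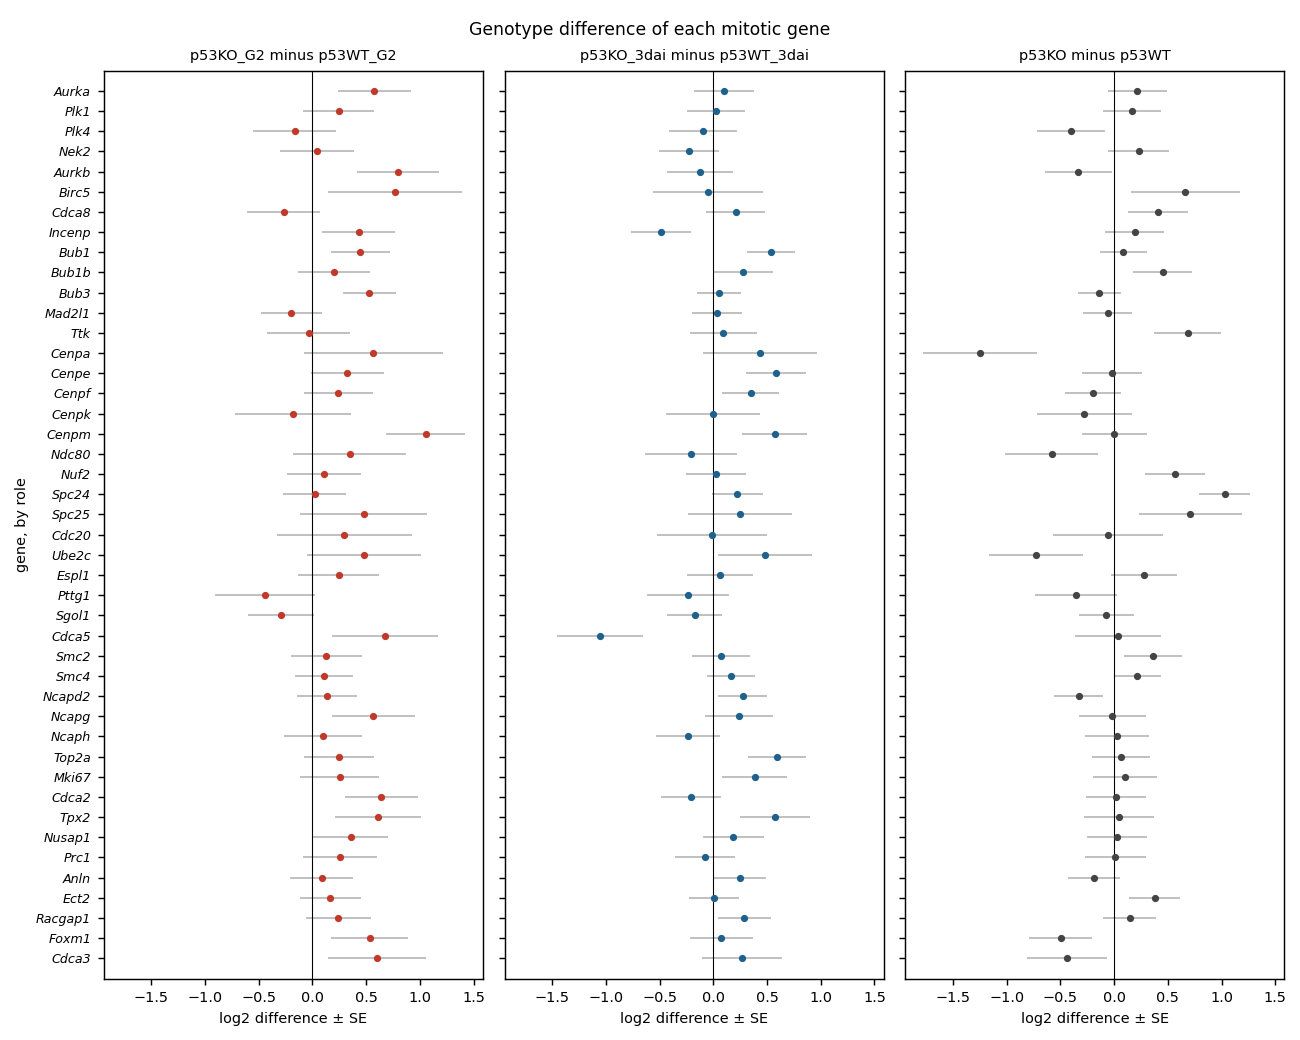
Difference between p53KO and p53WT groups for each of the 44 genes (points, on the log2(FPKM + 1) scale, with SE) in G2, 3dai and with no suffix. Most G2 points lie right of 0 and the others scatter around it; none was called.

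Whether the genotype difference itself changed between states was tested as an interaction. For 3dai against no suffix 0 of the 44 genes were called, where 0% of all genes were, and 2 had an unadjusted p under 0.05 (6% of all genes), with a median of 0.11. Spc24 had the smallest p (-0.81, unadjusted p = 0.0304, adjusted p = 0.82 by limma), followed by Cenpa (1.68) and Ube2c (1.21). For G2 against no suffix 0 were called, where 0.0232% were, and 5 had an unadjusted p under 0.05 (4.35%), with a median of 0.24. Spc24 (-1.01, unadjusted p = 0.0174, limma) was followed by Aurkb (1.13) and Foxm1 (1.03). Foxm1 had 33.4 and 15.3 FPKM in p53KO_G2 against 18.6 and 12.7 in p53WT_G2, and was lower in p53KO than in p53WT with no suffix.

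The levels of the 44 genes kept nearly the same order in every state in which the genes were high. Across genes, which are not independent, Spearman's rho of mean FPKM was 0.896 between p53KO_G2 and p53KO_3dai and 0.875 between p53WT_G2 and p53WT_3dai. Between genotypes it was 0.954 in G2 and 0.952 in 3dai. Ube2c, Top2a, Smc4 and Birc5 held the 4 highest means in both 3dai groups. Among the 37 genes with a promoter sequence, the 24 with TTTGAA had a median 3dai difference of 5.19 in p53KO and 5.07 in p53WT, and the 13 without it 4.70 and 4.28. The 7 genes with neither motif (Birc5, Mad2l1, Ncaph, Nuf2, Nusap1, Plk4 and Pttg1) spanned -0.41 to 6.35 in p53KO and -0.53 to 7.06 in p53WT. Both ends of that span are the genes whose upstream stretches are printed above without a capital, and the Pttg1 stretch lies inside its annotated gene. The 21 genes with both motifs had medians of 5.22 in p53KO and 5.21 in p53WT. They spanned 2.04 to 7.53 in p53KO and 1.85 to 6.36 in p53WT. A link between the motifs and the differences was not tested.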

How the data were processed

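Total RNA of 16 libraries was measured, and the values used are the FPKM that the authors deposited for 24341 gene symbols per library. Per the labels, libraries were made with the NEBNext Ultra II Directional kit. Per the submitters' processing notes, STAR, Cufflinks, Cuffdiff and mm10 were used, with versions not given in the sources used here. Reads were not analysed here, and 7919 genes were listed at 0 in every library, so a listed 0 is not taken as absence.

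The 12954 genes that reached 1 FPKM in 2 or more libraries were fitted as log2(FPKM + 1) over all 6 groups with limma 3.58.1 in R 4.3.3, with a variance trend and Benjamini-Hochberg adjustment over the genes of each comparison. An interaction is the difference of 2 genotype differences. The fit was tested on simulated data. The 44 genes and all lists were chosen with earlier results of these data known. Values per library are given for the gene of each role with the highest p53WT_3dai mean, those with the largest and smallest p53WT difference in 3dai, the 3 smallest p-values of each genotype, interaction and G2 comparison, and any gene not called in 3dai. Foxm1 in G2, Espl1 and the genes named for groups that do not overlap were added after their values were seen.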

Additional observations from a re-analysis of the deposited data

How the results depend on the processing

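The counts of mitotic genes called against no suffix were 43 in both genotypes, in 3dai and in G2, under every alternative run (quantile normalization, median-of-ratios scaling, 0.1 added in place of 1, no filter, values with status FAIL or LOWDATA removed, a fit of only the groups compared, and libraries left out), except that p53WT_G2 minus p53WT gave 42 to 43 with 1 library left out. Genotype and interaction counts were 0 throughout, except p53KO_3dai minus p53WT_3dai, which ranged from 0 to 1 with 1 library left out. In G2 minus 3dai the count was 4 of 44 in each genotype with 0.1 added. For the alternative fits of G2 minus 3dai, the share of all genes called is not given here. With 1 library left out it ranged from 8 to 25 in p53WT and from 4 to 21 in p53KO, and it was 1 in p53KO without p53KO_3dai replicates 2 and 3, which leaves 1 library assumed to vary like the other groups; fewer libraries enter these fits. Of 151 medians over the 44 genes under alternatives, 21 moved by more than the spread between libraries, and with 0.1 added the 3dai medians were 6.49 in p53KO and 6.38 in p53WT. With the replicate number as a block, 20 genes were called in p53KO_G2 minus p53KO_3dai and 20 in p53WT_G2 minus p53WT_3dai, and no other count changed. Deviations of libraries with the same number correlated at -0.159 to 0.127. With 2 or 3 libraries per group, such low values cannot decide whether the numbers pair the samples. Depth is unknown, so no interval for low values can be given.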
